A study of Homo sapiens with 26 samples.

Results

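The genes described here are 10 human genes whose proteins fold, glycan-check, oxidise or admit new proteins in the endoplasmic reticulum (ER). They were chosen by symbol: HSPA5, HSP90B1, CALR, CANX, PDIA3, PDIA4, PDIA6, P4HB, SEC61A1 and SEC61B. Each was found once among the 19478 transcripts of each of 4 tables of ribosome footprint counts, so 10 of 10 were measured in all 26 libraries.

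Secreted and membrane proteins enter the ER through the SEC61 channel, whose pore is formed by SEC61A1 and whose small tail-anchored subunit is SEC61B. HSPA5 (BiP), an Hsp70 chaperone, and HSP90B1 (GRP94), an Hsp90 chaperone, bind the unfolded chains, while the lectin chaperones CALR (soluble) and CANX (membrane-bound) hold glycoproteins that carry a monoglucosylated glycan. The disulfide isomerases P4HB (PDI), PDIA3 (ERp57), PDIA4 (ERp72) and PDIA6 (P5) form and rearrange disulfide bonds, and PDIA3 works with the lectin chaperones. Many genes of this system are raised together in the unfolded protein response, in which ATF6 and XBP1 act on promoter elements such as the ER stress response element (ERSE).

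Ribosome profiling sequences the mRNA fragments left under ribosomes after RNase I digestion, and the study compared ways to remove rRNA from such libraries. HEK293T cells, a human embryonic kidney line, gave 8 libraries of 15 to 35 nt fragments, with 2 each undepleted or treated with legacy Ribo-Zero Gold, RiboCop or NEBNext. K562 cells, a human erythroleukaemia line, gave a kit table of 12 libraries of 20 to 34 nt, with 2 each undepleted or treated with FastSelect, with riboPools, or with riboPools eluted in the cold, and 1 each of Ribo-Zero Plus alone, with oligos, with formaldehyde and with oligos and formaldehyde. A further K562 table on size selection held 4 libraries, 1 each titled undepleted or NEBNext at 20 to 34 nt and at 20 to 60 nt. HEK293FT cells, a fast-growing relative of HEK293T, gave 1 undepleted library and 1 depleted with custom oligos, both of 15 to 35 nt. All cells were lysed with cycloheximide and received no other treatment named in the labels. Both K562 libraries titled undepleted in the size-selection table have another label with the word NEBNext, and their titles decided the group. Nothing in the labels says that same-group libraries came from separate cultures, so p-values measure the spread between these libraries, which may be technical.

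Library totals ran from 46858 to 5795774 counts. The sum of 11 erythroid markers lay between 3809 and 13074 CPM (counts scaled to the library total) in K562 libraries, at 15 or less in HEK293T and at 4.18 or less in HEK293FT libraries. The sum of 6 kidney or neural markers lay between 370 and 874 CPM in HEK293T and HEK293FT and at 43.3 or less in K562 libraries. NEFM, a neurofilament gene, was at 0 in every K562 library and at 101 to 404 CPM in HEK293T and HEK293FT, while GATA1 and the fetal globin gene HBG1 were at 0 in every HEK293T and HEK293FT library. The kidney markers were absent or low in the kidney-derived lines, with PAX8 at 0 and PAX2 at 8.33 CPM or less in HEK293T and HEK293FT libraries, while PAX8 reached 2.64 CPM in K562. The RiboCop pair was the only replicate pair whose counts did not differ beyond sampling noise (chi-square p = 0.103). Its libraries carry different barcodes in the labels and were kept as 2, and summing them into 1 left no member called.

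Promoter sequences are shown first because the ERSE letters occur in several promoters of the 10 genes. RefSeq promoters (GRCh38.p14, 250 bases before to 50 after the gene start) were matched by symbol for 9 of the 10 genes, all but PDIA3. The ERSE letters, CCAAT and CCACG with any 9 bases between them, were searched on both strands. They were found in 4 of the 9 promoters, those of HSPA5, HSP90B1, CALR and CANX. Of the 14586 promoters matched by symbol to counted genes, 19 held them (0.13%). The ERSE is known as an element of promoters of this same system, so these shares are a description and no test of enrichment. HSP90B1 held 2 matches. The 5 matches follow in the direction in which the motif reads, with its fixed letters in capitals.
HSPA5 (chr9:125241391-125241409, gene strand): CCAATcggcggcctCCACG
HSP90B1 (chr12:103930216-103930234, gene strand): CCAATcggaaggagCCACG
HSP90B1 (chr12:103930321-103930339, opposite strand): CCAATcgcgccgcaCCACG
CALR (chr19:12938384-12938402, opposite strand): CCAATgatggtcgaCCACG
CANX (chr5:179698778-179698796, gene strand): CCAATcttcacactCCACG

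The HSPA5 match began 66 bases before the RefSeq start. The 150 bases before that start (chr9:125241344-125241493, GRCh38.p14, minus strand, read in the direction of the gene) are printed with the ERSE letters in capitals.
HSPA5 promoter: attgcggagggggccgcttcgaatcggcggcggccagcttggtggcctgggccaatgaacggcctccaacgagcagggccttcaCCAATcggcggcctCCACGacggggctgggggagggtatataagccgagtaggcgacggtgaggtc
The shorter CCAAT letters, which overlap the ERSE, were in 7 of the 9 promoters and in 36.3% of the promoters of counted genes. The ERSE-II letters, ATTGG and CCACG with any 1 base between them, were in none of the 9 and in 0.0823% of the promoters of counted genes. A match describes these letters alone, and copies that differ from them in any fixed letter were neither searched nor marked. For SEC61A1 and PDIA6 the RefSeq start lies 728 and 19641 bases from the start of the counted transcript, so the window searched belongs to another start of the gene. For PDIA4 and P4HB the counted transcript starts 151 and 159 bases before the RefSeq start, so much of the window lies after the counted start. The counted HSP90B1 transcript starts 76 bases before the RefSeq start, inside the match on the opposite strand.

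The coding sequence of SEC61B is shown because the largest kit difference among the 10 genes fell on it and because its 288 nt, the shortest of the set, held all of its counted footprints. It spans chr9:99222364-99230421 (GRCh38, plus strand, introns included in the span) and is printed without the stop codon, with the start codon in capitals.
SEC61B coding sequence: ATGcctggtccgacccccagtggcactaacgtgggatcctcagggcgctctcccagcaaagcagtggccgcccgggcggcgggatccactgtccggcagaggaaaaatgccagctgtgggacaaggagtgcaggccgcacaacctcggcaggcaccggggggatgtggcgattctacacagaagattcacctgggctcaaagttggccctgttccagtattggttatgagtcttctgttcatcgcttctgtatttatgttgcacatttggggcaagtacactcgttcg
Its GC content was 58.0%, the highest of the 10, against a median of 52.9% over all coding sequences, and its purine content was 50.7% against a median of 52.0%. HSP90B1, on chromosome 12 (103930334 to 103947926), had the longest coding sequence, 2409 nt, with the lowest GC content, 41.3%, and the highest purine content, 58.6%. SEC61A1, on chromosome 3 (128052369 to 128071682), had the lowest purine content of the 10, 45.4%. P4HB, on chromosome 17 (81843159 to 81860694), had 56.4% GC, and CANX, on chromosome 5 (179698906 to 179730925), had 44.8%. The counted transcripts of the other 5 genes lie on chromosome 9 from 125234853 to 125241330 (HSPA5), chromosome 19 from 12938607 to 12944489 (CALR), chromosome 15 from 43746392 to 43773279 (PDIA3), chromosome 7 from 149003062 to 149028641 (PDIA4) and chromosome 2 from 10783391 to 10812844 (PDIA6). Positions are those of GENCODE release 29. PDIA3 has annotated pseudogenes (PDIA3P1 and PDIA3P2), and as the handling of reads that match several genes is not given in the sources used here, its counts carry that uncertainty.

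In undepleted libraries the 10 genes together took 0.714% ± 0.00534 (SD, n = 2) of all coding counts in HEK293T, 0.574% ± 0.00663 (n = 2) in the K562 kit table and 0.443% in the single HEK293FT library. The K562 libraries titled undepleted in the size-selection table gave 0.568% and 0.583%, close to the kit table's 0.569% and 0.579%. The ranges of HEK293T and K562 did not overlap, and HEK293FT lay below both. Such shares depend on the library total. Scaled by total counts, the median log2 fold change in K562 against HEK293T was -0.311 over the 10 genes and -0.237 over all genes tested. In the main fit below it was -0.0477 over the 10 genes and 0.023 over all genes. A footprint share reflects the amount of an mRNA and its ribosome load together, which cannot be told apart here, nor can a lower level in every cell be told apart from fewer cells at a higher level. The disulfide isomerases alone held 0.203% of counts in HEK293T, 0.172% ± 0.00307 in K562 and 0.115% in HEK293FT.

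Per length of coding sequence, the lectin chaperones led in HEK293T and in K562. CALR, the soluble lectin, stood at 818 and 932 CPM per kb in the HEK293T undepleted libraries and at 727 and 803 in those of the K562 kit table. CANX, its membrane-bound partner, followed at 666 and 727 CPM per kb in HEK293T and at 606 and 611 in K562. In both lines the range of CALR lay above that of CANX, and CANX lay above the rest. HSPA5 (531 and 591 CPM per kb), HSP90B1 (490 and 519) and SEC61B (407 and 463) came next in HEK293T, each with a range apart from its neighbours. Each range spans 2 libraries and leaves out counting error. SEC61B rests on few counts, given below, so its place before PDIA3 is not resolved. PDIA3 and PDIA6 overlapped at 374 to 391 CPM per kb. PDIA4, P4HB and SEC61A1 made up the lowest densities, between 204 and 299.7 CPM per kb, with overlapping ranges.

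The order in the K562 kit table differed in its middle. SEC61B (422 and 424 CPM per kb) held the third place there, while PDIA3, HSP90B1, HSPA5 and P4HB overlapped one another in turn between 339 and 402 CPM per kb. PDIA6 (248 and 281), SEC61A1 (138 and 151) and PDIA4 (125 and 127) followed with separate ranges. In the HEK293FT undepleted library SEC61B came first at 783 CPM per kb, before CANX at 464 and CALR at 447, and PDIA4 came last at 137. Each of the 10 genes was among the 1708 highest transcripts by CPM in all 5 undepleted libraries of HEK293T, the K562 kit table and HEK293FT. CANX ranked between 96 and 182 in them.

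**Figure D1:**
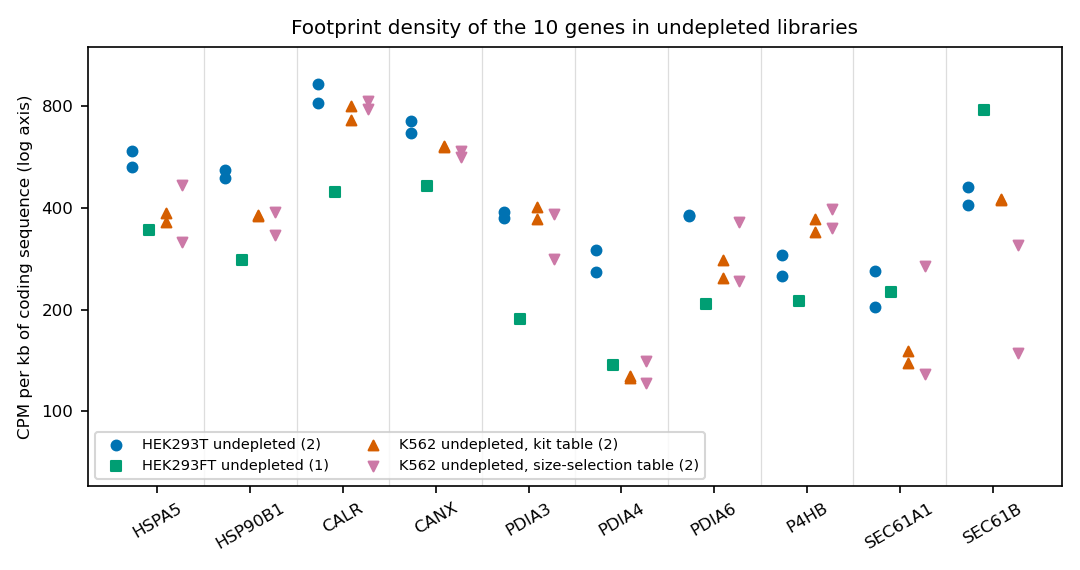
Footprint density (CPM per kb of coding sequence, log axis) of the 10 genes in the 7 libraries titled undepleted, 1 point per library, with cell lines and tables by colour and marker. CALR and CANX are highest in HEK293T and K562, and SEC61B is highest in HEK293FT at 783 CPM per kb.

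The first question was how the 10 genes differ between the cell lines. Undepleted libraries of 3 tables were fitted together, and cell line, experiment and, for K562, fragment size cannot be told apart in these differences. The 3 comparisons share libraries in pairs. HEK293FT has 1 undepleted library, assumed in the fit to vary like those of HEK293T and K562. In HEK293FT against HEK293T, 7 of the 10 genes were lower, against 1.31% of 9644 genes tested, and 1 was higher, against 2.75% (4.05% called in either direction; edgeR quasi-likelihood test, adjusted p under 0.05). The median log2 fold change was -0.635 over the 10 genes and 0.00784 over all genes tested. The HEK293T undepleted libraries held 120019 and 153462 counts. Among HEK293T libraries alone 4410 genes passed the count filter, so many of the 9644 had few HEK293T counts. Such genes can hardly be called lower, so 1.31% is not a share at the depth of the 10 genes.

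HSPA5 had 1042 and 1160 CPM in HEK293T and 676 CPM in HEK293FT (log2 fold change -0.57 ± 0.11 SE, adjusted p = 2.01e-05). HSP90B1 had 1250 and 1179 CPM in HEK293T and 675 CPM in HEK293FT (-0.70 ± 0.108, adjusted p = 1.19e-08). The HEK293FT library lay below both HEK293T libraries for both chaperones. CALR had 1166 and 1023 CPM in HEK293T and 560 in HEK293FT, a log2 fold change of -0.81 ± 0.116. CANX had 1183 and 1290 CPM in HEK293T and 825 in HEK293FT, a log2 fold change of -0.45 ± 0.103. Both lectin chaperones passed the test, CALR with an adjusted p of 3.14e-10 and CANX with 0.000771.

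Of the 4 disulfide isomerases, 3 were lower in HEK293FT. PDIA3, the isomerase that works with CALR and CANX, had 592 and 567 CPM in HEK293T and 284 in HEK293FT (-0.88 ± 0.157). PDIA4 had 499.9 and 579.95 CPM against 265 (-0.90 ± 0.162), and PDIA6 had 499.9 and 502 against 274 (-0.73 ± 0.164). P4HB, the founding member of the family, had 442 and 384 CPM in HEK293T and 324 in HEK293FT and was not called (-0.20 ± 0.169, adjusted p = 0.706).

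Neither of the translocon genes was called lower. SEC61B was the member called higher in HEK293FT, with 133 and 117 CPM in HEK293T against 225 (log2 fold change 0.999 ± 0.255, adjusted p = 0.00407). The HEK293T values rest on 16 and 18 counts. SEC61A1 had 292 and 371 CPM in HEK293T and 322 in HEK293FT, inside the HEK293T range (0.08 ± 0.179, adjusted p = 0.925). The SEC61B density was 2.27 and 1.57 times that of SEC61A1 in the HEK293T libraries and 3.47 times in HEK293FT.

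These calls lean on the second HEK293T undepleted library. Without it both groups held 1 library, the spread came from K562 alone, and 3 of the 10 genes were called, CALR (-0.88), HSP90B1 (-0.71) and PDIA3 (-0.88). The other 5 kept their direction, with log2 fold changes of -0.44 for HSPA5, -0.34 for CANX, -0.73 for PDIA4, -0.69 for PDIA6 and 0.94 for SEC61B. With the custom oligo library in place of the undepleted HEK293FT library, 8 members were called. Scaling by total counts moved the median of all genes to -0.0936 and that of the 10 genes to -0.78, and turned the calls over all genes from 265 higher and 126 lower to 179 higher and 240 lower.

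K562 against HEK293T gave 1 member higher and 3 lower, a share near the background of 35.4% of genes called (18.5% higher and 16.9% lower). PDIA4 had 499.9 and 579.95 CPM in HEK293T and 246 and 242 in K562 (log2 fold change -0.90 ± 0.148, adjusted p = 1.37e-08). P4HB had 442 and 384 CPM in HEK293T and 516 and 566 in K562 (0.65 ± 0.14, adjusted p = 2.61e-05). So the groups did not overlap for either isomerase, and the 2 genes were called in opposite directions. PDIA4 stayed called with the K562 size-selection libraries (-0.99) and in NEBNext libraries of both lines (-0.96). P4HB was called with the size-selection libraries (0.57) but not between NEBNext libraries (0.21, adjusted p = 0.348).

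HSPA5 was lower in K562, at 757 and 715 CPM, than in HEK293T (-0.33 ± 0.0983, adjusted p = 0.00325). SEC61A1 had 216 and 198 CPM in K562, below both HEK293T libraries (-0.45 ± 0.177, adjusted p = 0.0359). Both calls were lost without the second HEK293T undepleted library (-0.24 and -0.23) or without the second K562 library (-0.30 and -0.39). The SEC61A1 call was also lost with DESeq2 (adjusted p = 0.0806), without a filter (0.11) and with the K562 size-selection libraries (0.0987). The other 6 genes had log2 fold changes between -0.27 and 0.275 and were not called. HSP90B1 had 912 and 922 CPM in K562, CALR 1005 and 909.98, CANX 1076 and 1084, PDIA3 609 and 562.1, and PDIA6 328 and 371. Scaling by total counts moved the median of all genes from 0.023 to -0.237 and the calls from 1781 higher and 1629 lower to 1219 higher and 2134 lower. DESeq2 gave 1140 higher and 1360 lower.

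K562 against HEK293FT, in which the single HEK293FT library again borrowed its spread from the other groups, called 9 of the 10 genes, 7 higher and 2 lower, where 52.1% of all genes were called, 26% higher and 26.2% lower. PDIA3 differed most (1.16 ± 0.0965), followed by CALR (0.89 ± 0.0735), P4HB (0.85 ± 0.0946), HSP90B1 (0.55 ± 0.0706), CANX (0.50 ± 0.0651), PDIA6 (0.46 ± 0.108) and HSPA5 (0.24 ± 0.0735). The HSPA5 call was lost without either K562 library (0.17 and 0.25), with total count scaling (0.12) and with DESeq2 (0.26). Both translocon genes were lower in K562, SEC61A1 by a log2 fold change of -0.52 ± 0.116 and SEC61B by -0.78 ± 0.144. PDIA4 was the exception, with 246 and 242 CPM in K562 and 265 in HEK293FT (-0.0087 ± 0.119, adjusted p = 0.959). Scaling by total counts moved the median of all genes to -0.13 and that of the 10 genes from 0.479 to 0.36.

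**Figure D2:**
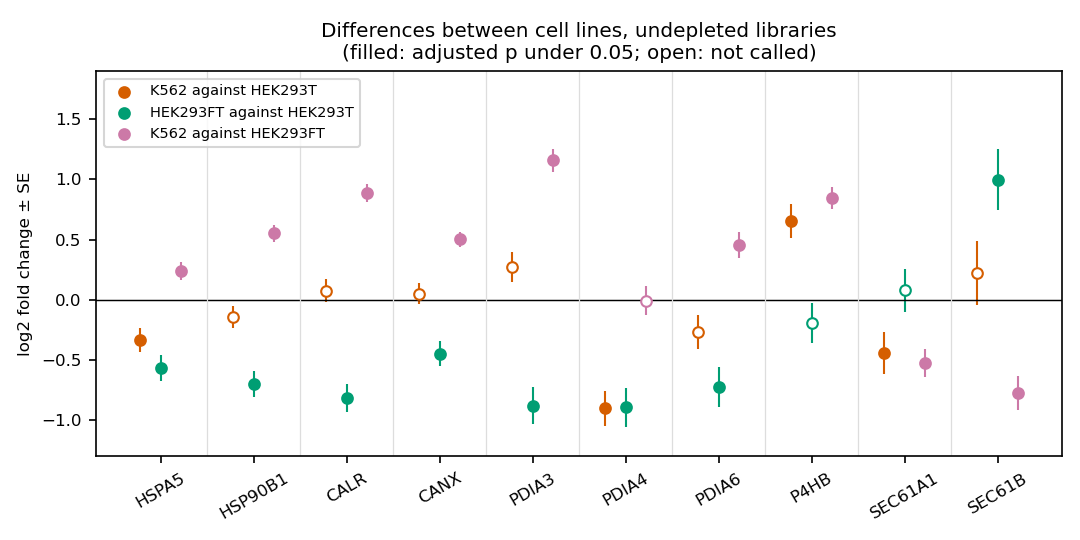
log2 fold changes of the 10 genes between cell lines, with standard errors as bars; filled points passed an adjusted p under 0.05. In HEK293FT against HEK293T the 4 chaperones and the 4 isomerases lie below 0, all but P4HB called, while SEC61B lies at 0.999.

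The 4 genes with an ERSE match, HSPA5, HSP90B1, CALR and CANX, were all called lower in HEK293FT than in HEK293T. Of all genes tested 1.31% were called lower, with the limit on that share given above. Of the 5 genes with a window and no match, PDIA4 and PDIA6 were called lower, P4HB (-0.20) and SEC61A1 (0.08) were not called, and SEC61B was called higher. PDIA3, which had no promoter in the table, was called lower. In K562 against HEK293T, HSPA5 alone of the 4 genes with a match was called (-0.33). HSP90B1 (-0.15), CALR (0.08) and CANX (0.05) were not called there. Of the 5 genes without a match, PDIA4 (-0.90) and SEC61A1 (-0.45) were called lower in that comparison and P4HB (0.65) higher. The windows of PDIA6 and SEC61A1 belong to another start, and those of PDIA4 and P4HB lie in good part after the counted start. These counts are a description with no test.

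Other genes of the ER folding and entry machinery, 84 in 7 lists, were read beside the 10. Of 82 tested in HEK293FT against HEK293T, 7 were lower and none higher, against 1.31% and 2.75% of all genes tested, with a median log2 fold change of -0.286. Among them were DDOST, an oligosaccharyltransferase subunit (-0.73 ± 0.172), and GANAB, the catalytic subunit of glucosidase II (-0.46 ± 0.131). Of the 21 translocon and targeting genes tested, 1 was lower and none higher, with a median of -0.0873. The limit of the 1.31% given above, few HEK293T counts for many genes, holds here too. In K562 against HEK293T, 14 of 82 were higher and 8 lower, where 18.5% of all genes were higher and 16.9% lower, so this list was near or under the background. SDF2L1, a partner of HSPA5 and its J-proteins, had 58.3 and 58.7 CPM in HEK293T and 267 and 269 in K562 (2.45 ± 0.281). The HEK293T values of SDF2L1 rest on 7 and 9 counts. TMX2, a thioredoxin-related membrane protein, had 117 and 150 CPM in HEK293T and 245 and 280 in K562 (1.25 ± 0.224). Also higher were SSR3, a translocon-associated subunit (1.02), and the signal peptidase subunits SPCS2 (0.89) and SEC11A (0.77). K562 against HEK293FT gave 36 of 82 higher and 9 lower, where 26% of all genes were higher and 26.2% lower. The highest were SDF2L1 (2.02), TMX2 (1.62), the chaperone ERP29 (1.17), the HSPA5 exchange factor HYOU1 (1.04) and SEC11A (1.03). SSR4, another translocon-associated subunit, was lower (-0.43). The 7 unfolded protein response sensors and factors tested gave 1 higher and 1 lower in K562 against HEK293T, none called in HEK293FT against HEK293T, and 3 higher and 1 lower in K562 against HEK293FT.

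The second question was whether a depletion kit changes the counts of these genes. NEBNext, which removes rRNA by hybridising DNA probes and digesting the hybrids with RNase H, was compared with undepleted libraries in HEK293T. It showed 1 of the 10 genes higher, SEC61B, and none lower, where 3.24% of 4410 genes were called. SEC61B had 133 and 117 CPM in the undepleted libraries, from 16 and 18 counts, and 293 and 537 CPM in the NEBNext libraries, from 39 and 108 counts. Both NEBNext libraries lay above both undepleted libraries and above all Ribo-Zero Gold (145 and 152 CPM) and RiboCop (83.2 and 134 CPM) libraries. The log2 fold change was 1.82 ± 0.258 (edgeR quasi-likelihood test, adjusted p = 9.98e-10). It passed in every alternative run, with the lowest value, 1.23 (adjusted p = 0.0281), without the second NEBNext library.

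Its channel partner SEC61A1 had 292 and 371 CPM undepleted and 345 and 328 CPM with NEBNext (0.01 ± 0.215). The density of SEC61B over that of SEC61A1 was therefore 4.2 and 8.11 in the NEBNext libraries, against 2.27 and 1.57 in the undepleted ones. CALR had 1166 and 1023 CPM undepleted and 825 and 801 CPM with NEBNext, with no overlap, and was not called (-0.41 ± 0.132, adjusted p = 0.0609). CALR was called with total count scaling (adjusted p = 0.0456), and the range over its alternatives was 0.0379 to 0.419. The 9 genes other than SEC61B ranged from -0.407 to 0.078, with standard errors of up to 0.215. PDIA6 lay lowest after CALR (-0.31 ± 0.187), with 499.9 and 502 CPM undepleted against 443 and 368. The median of the 10 was -0.156, and that of all genes 0.00198.

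NEBNext in K562 called none of the 10 genes, where 2.72% of 3715 genes were called and 1 member had an unadjusted p under 0.05 (PDIA6, -0.45 ± 0.222, adjusted p = 0.326, edgeR quasi-likelihood test). DESeq2 called none of the 10 either. SEC61B had 89.4 CPM (17 counts) undepleted and 92.9 CPM (41 counts) with NEBNext at 20 to 34 nt. At 20 to 60 nt it had 42.7 CPM from 2 counts undepleted and 200.3 CPM from 40 counts with NEBNext, a ratio of 4.69 (95% exact interval 1.22 to 40.1) below the expected count of 20 that the counts of intervals require. So the pair of narrow libraries was level and the pair of wide ones was apart, on very few counts. The fit over both sizes gave 0.64 ± 0.4 (adjusted p = 0.497). Without the NEBNext or the undepleted 20 to 34 nt library it gave 1.37 and 1.75, and without the NEBNext 20 to 60 nt library 0.32, none of them called.

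The difference between the lines in the NEBNext effect on SEC61B was tested directly, with 0.296% of 4736 genes called. For SEC61B it was -1.17 ± 0.544 in K562 relative to HEK293T (edgeR quasi-likelihood test, unadjusted p = 0.0357, adjusted p = 0.559). It turned positive without either 20 to 34 nt K562 library (0.59 and 0.57). The remaining 9 genes had differences between -0.365 and 0.343, and none was called by edgeR or DESeq2. A different NEBNext effect in the lines was thus not detectable at this depth.

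Members with lower CPM under NEBNext in both narrow and wide K562 pairs were HSPA5 (521 against 620, and 646 against 918), CALR (793 against 1036, and 826 against 982), CANX (968 against 1009, and 976 against 1046) and P4HB (462 against 604, and 436 against 534). None of them was called in the fit, and the share of all genes lower in both pairs was not computed. The exact intervals of the HSPA5 and CANX ratios included 1 in both pairs. At 20 to 34 nt the exact interval of the ratio excluded 1 for 4 genes: PDIA6 (0.611), P4HB (0.765) and CALR (0.766) below it and HSP90B1 (1.21) above it. These were 4 of the 9 members with an expected count of at least 20, where 28.9% of the 1861 such genes had an interval that excluded 1. At 20 to 60 nt it was 0 of 6 members and 18.6% of 419 genes. These intervals cover counting error only.

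**Figure D3:**
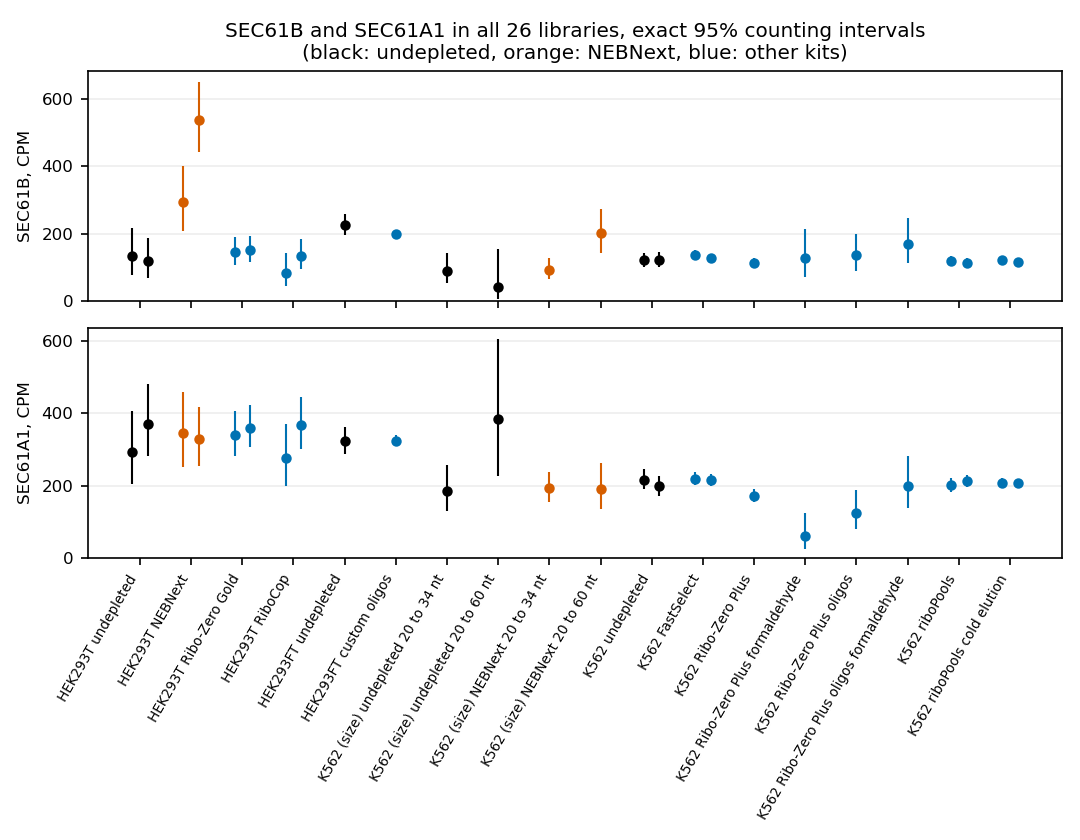
SEC61B (upper panel) and SEC61A1 (lower panel) in CPM in each of the 26 libraries, 1 point per library with exact 95% counting intervals, by group. SEC61B is highest in the 2 HEK293T NEBNext libraries (293 and 537 CPM), while SEC61A1 there stays at 345 and 328 CPM.

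Ribo-Zero Gold, a bead-capture kit, and RiboCop, another capture kit, called none of the 10 genes in HEK293T, with edgeR or DESeq2. At an unadjusted p under 0.05 there were 0 members with Ribo-Zero Gold and 1 with RiboCop. Over all 4410 genes Ribo-Zero Gold called 0.068% and RiboCop called 0%, with 250 and 195 genes at an unadjusted p under 0.05. Over all genes DESeq2 called 1 and 0. Their 20 member differences ranged from -0.162 to 0.371 with standard errors of up to 0.328. The largest was P4HB with RiboCop, at 499.4 and 551 CPM against 442 and 384 undepleted, a gap without overlap that was not called (adjusted p = 0.998). HSPA5 had 1133 and 1212 CPM with Ribo-Zero Gold and 1268 and 1167 with RiboCop, next to 1042 and 1160 undepleted.

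FastSelect, which blocks reverse transcription of rRNA, and riboPools with either elution, which capture rRNA with biotinylated probes, called none of the 10 genes in K562, with edgeR or DESeq2. Of the 10, 1 had an unadjusted p under 0.05 with cold elution and 0 with the others. Their libraries held 2291924 to 5795774 counts, against 1031889 and 1135460 in the undepleted ones. FastSelect called 0.0197% of 10142 genes, riboPools 0.0887% and riboPools with cold elution 0.237%. The numbers at an unadjusted p under 0.05 were 559, 586 and 634, and DESeq2 called 1, 0 and 0 of all genes. The 30 member differences lay between -0.111 and 0.13, with standard errors of up to 0.109. The tightest values were those of CANX, which had 1093 and 1084 CPM with FastSelect, 1089 and 1077 with riboPools, 1080 and 1082 with cold elution, and 1076 and 1084 undepleted. SEC61B had 135 and 127 CPM with FastSelect, 119 and 114 with riboPools and 122 and 117 with cold elution, against 122 and 122 undepleted. Its density stayed between 2.67 and 3.07 times that of SEC61A1 in these 6 libraries, against 2.79 and 3.06 undepleted.

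Ribo-Zero Plus, which also digests rRNA with RNase H, was tested through its 1 deep library without additions, assumed to vary like the replicated groups. It called 3 of the 10 genes, against 20.4% of all genes. CALR had 829 CPM against 1005 and 909.98 undepleted (-0.19 ± 0.0516, adjusted p = 0.00379). PDIA6 had 284 CPM against 328 and 371 (-0.28 ± 0.0842, adjusted p = 0.0109). PDIA4 had 297 CPM against 246 and 242 (0.30 ± 0.0911, adjusted p = 0.0097). DESeq2 called none of the 3, and 33 genes in place of 2065. With all Ribo-Zero Plus libraries in 1 group, CALR stayed called (-0.35), while PDIA4 stood at 0.08 and PDIA6 at 0.09, both uncalled. CALR was also lost without the first undepleted library (-0.12) and PDIA6 without the second (-0.18). SEC61B had 111 CPM against 122 and 122 (-0.11 ± 0.136) and was not called.

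Of the other pathway genes, 3 of 58 tested were higher and 1 lower with NEBNext in HEK293T, where 3.24% of all genes were called. RPN2, an oligosaccharyltransferase subunit, had 367 and 398 CPM undepleted and 413 and 681 with NEBNext (0.59 ± 0.184, adjusted p = 0.0436). None of 58 was called with Ribo-Zero Gold or RiboCop, none of 54 with NEBNext in K562, and none of 81 with FastSelect or with riboPools under either elution. Ribo-Zero Plus called 6 of 81 higher and 7 lower, against 8.99% and 11.4% of all genes, so neither count was above the background. Among these were the oxidase ERO1A (0.62 ± 0.193) and the oligosaccharyltransferase subunit STT3B (0.38 ± 0.107) above, and SDF2L1 (-0.30 ± 0.0966) and the oligosaccharyltransferase subunit RPN1 (-0.29 ± 0.0927) below.

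**Figure D4:**
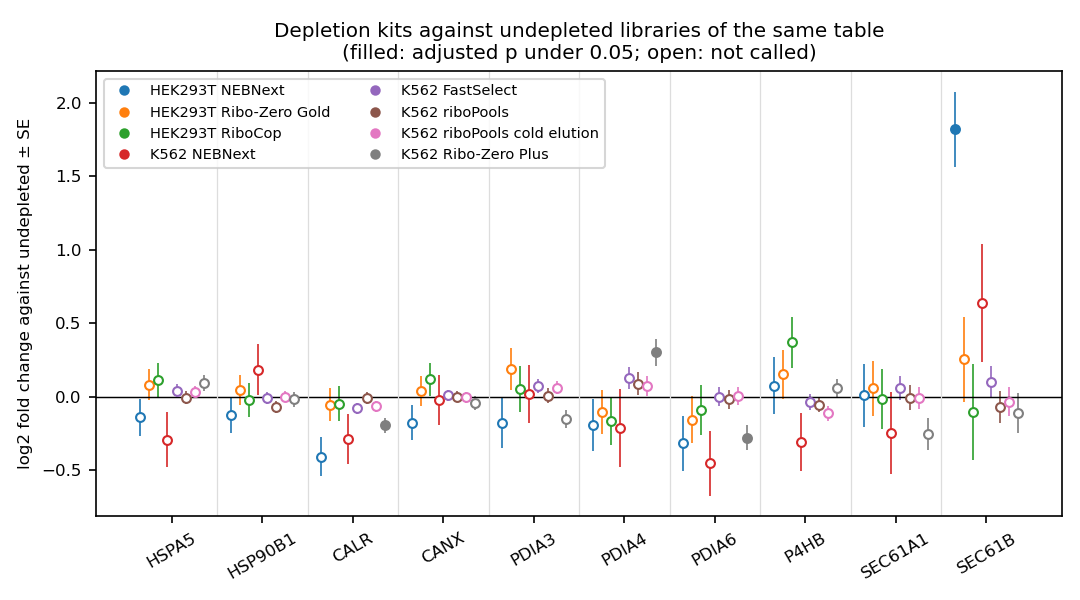
log2 fold change of each of the 10 genes in 8 kit comparisons against undepleted libraries of the same table, with standard errors as bars; filled points passed an adjusted p under 0.05. SEC61B with NEBNext in HEK293T stands at 1.82, and every other difference but SEC61B with NEBNext in K562 (0.64) lies between -0.45 and 0.371.

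The other Ribo-Zero Plus treatments, with added oligos, added formaldehyde or both of these, gave 1 shallow library each, so each is set against both undepleted libraries as a CPM ratio with an exact 95% interval and no test. Genes past 2-fold, among those with an expected count of at least 20, made up 10.9% with oligos, 11.2% with formaldehyde and 14.1% with both. Members past 2-fold numbered 0 of 10, 1 of 8 and 0 of 10. The interval excluded 1 for 40.7%, 45% and 44.7% of these genes and for 1 of 10, 6 of 8 and 4 of 10 members. P4HB was that member, at 239.9 CPM from 28 counts with formaldehyde against 516 and 566 CPM undepleted, a ratio of 0.444 (0.294 to 0.646). With oligos and formaldehyde P4HB had 291 CPM (0.538, 0.395 to 0.719), and with oligos alone 460 CPM (0.852, 0.676 to 1.06).

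The summed erythroid markers stood at 6227 CPM with formaldehyde and 3809 CPM with both additions, against 11743 and 11376 CPM undepleted and 9398 CPM with oligos alone, and their part in these ratios was not tested. Both formaldehyde libraries are set against the same undepleted libraries, so their ratios are given side by side. CANX had 1619 CPM with formaldehyde and 1580 with both additions, against 1076 and 1084 undepleted, ratios of 1.499 (1.29 to 1.74) and 1.46 (1.28 to 1.66). PDIA6 had 488 and 503 CPM against 328 and 371, ratios of 1.40 and 1.44. PDIA3 had 385 and 388 CPM against 609 and 562.1, ratios of 0.657 and 0.661. All 6 of these intervals excluded 1, and the oligo library's interval included 1 for the same 3 genes (1.15, 1.13 and 0.812).

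Between the formaldehyde libraries the intervals of HSP90B1 did not overlap, while those of CALR did. HSP90B1 had 591 CPM with formaldehyde alone (0.645, 0.4996 to 0.82) and 1023 with both additions (1.12, 0.948 to 1.31). CALR had 659.6 CPM with formaldehyde alone (0.687, 0.54 to 0.863) and 811 with both (0.845, 0.705 to 1.01). The density of CALR over that of CANX was 0.578 and 0.729 in these libraries, against 1.33 and 1.19 undepleted. HSPA5 lay at 677 and 654 CPM, with both intervals including 1. SEC61A1 had 59.96 CPM from 7 counts with formaldehyde (0.289, 0.116 to 0.601), 125 CPM from 23 counts with oligos (0.601, 0.377 to 0.913) and 199.8 CPM from 33 counts with both (0.965, 0.656 to 1.38). SEC61A1 and SEC61B fell under the expected count of 20 in the formaldehyde library and were not counted there.

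**Figure D5:**
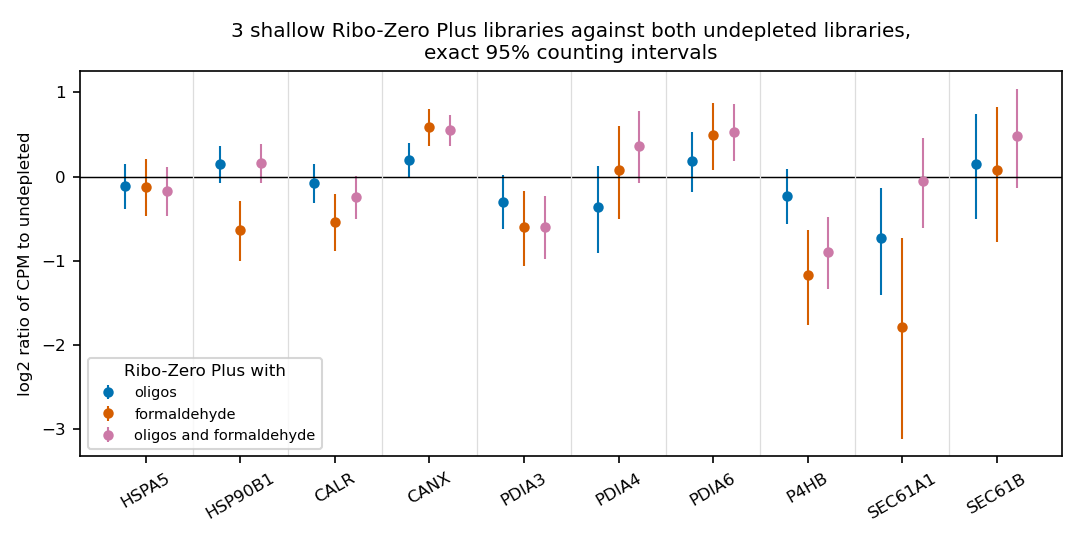
log2 ratio of CPM to both undepleted K562 libraries for the 10 genes in the 3 shallow Ribo-Zero Plus libraries, with exact 95% counting intervals. In both libraries with formaldehyde the whole interval lies below 0 for P4HB and PDIA3 and above 0 for CANX and PDIA6.

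Custom oligos in HEK293FT left no member past 2-fold, where 0.0321% of 6236 genes were. The depleted library held 1147 to 4981 counts per member. Ratios ran from 0.87 to 1.12. P4HB had 282 CPM with custom oligos and 324 undepleted, the only ratio of the 10 whose interval excluded 1 (0.87, 0.768 to 0.989), against 6.11% of the 6236 genes. SEC61B had 199.6 CPM against 225 (0.886, 0.762 to 1.03), and HSPA5 had 675 against 676 (0.999, 0.917 to 1.09).

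Between the K562 experiments, the undepleted 20 to 34 nt library of the size-selection table gave ratios between 0.734 (SEC61B) and 1.37 (PDIA6) to the kit table. The PDIA6 interval alone excluded 1 (1.09 to 1.71), at 478 CPM against 328 and 371, where the interval of 8.35% of 1892 genes did. In the 20 to 60 nt library, of 46858 counts, SEC61A1 stood at 384 CPM from 18 counts against 216 and 198 (1.85, 1.09 to 2.97), under the expected count of 20. No other member's interval excluded 1, against 7.99% of the 413 genes over that count.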

How the data were processed

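The authors deposited whole-number counts of footprint reads per coding sequence in 4 tables, 1 transcript per row, per the file headers. CASAVA 1.8, STAR and the builds GRCh38 and hg38 are named in the submitters' processing notes; read filters and the handling of duplicates are not given in the sources used here. The deposited RPM tables were not used. Samples were grouped by title. CPM is the count scaled to the library total, and CPM per kb divides it by coding length (GENCODE release 29; 97.51% of transcript identifiers matched with version). Intervals are exact at 95%; PCR reads are not independent molecules, so they cover counting error only.

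The test of counts used edgeR 4.0.16 under R 4.3.3, with TMM, filterByExpr (minimum count 10), quasi-likelihood test, Benjamini-Hochberg adjustment over all genes tested. Each table was fitted with 1 term per group, and the K562 size-selection table by kit plus size, with 1 degree of freedom left for the spread. Undepleted libraries of 3 tables entered 1 fit for the cell lines. In the K562 kit table each Ribo-Zero Plus library was its own group. Single libraries were compared by CPM ratio, past 2-fold, at an expected count of at least 20. Fits were tested on simulated data. Alternatives were DESeq2 1.42.0, total count scaling, no filter, left-out libraries, a replicate block and other libraries.

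All 10 genes are named in every comparison. Of the pathway lists, the 5 largest called rises and falls between cell lines, and 2 per kit, with a mean of at least 100 counts are named. Members and lists were chosen with earlier results of these data known.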

Additional observations from a re-analysis of the deposited data

How the results depend on the processing

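Of the 25 called member differences, 12 lost their call under at least 1 alternative, and 1 turned, PDIA6 with Ribo-Zero Plus (0.0856 with these libraries in 1 group). Among uncalled values the larger one that turned was SEC61B in the comparison of NEBNext effects (0.59 and 0.569 without a 20 to 34 nt K562 library; -1.7 to 0.59 over the left-out libraries). Of 93 uncalled differences under 0.5, 47 changed sign and 5 were called under at least 1 alternative; the cause was not tested. Members called became 2 for NEBNext in HEK293T with total count scaling, and 0 for Ribo-Zero Plus with DESeq2.

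With DESeq2, genes called became 58 (NEBNext, HEK293T), 1 (Ribo-Zero Gold), 16 (NEBNext, K562), 1 (FastSelect), 0 and 0 (riboPools, cold elution), 33 (Ribo-Zero Plus), 237 (HEK293FT against HEK293T), 3000 (K562 against HEK293FT) and 1 (NEBNext effect). With total count scaling 60 genes were called for NEBNext in K562. Without a filter 1 was called for Ribo-Zero Gold, and with the libraries of its 2 groups alone 5. With Ribo-Zero Plus in 1 group, FastSelect and riboPools with either elution called 0. K562 against HEK293T called 1413 genes with size-selection libraries and 1848 between NEBNext libraries. At an expected count of 100, genes past 2-fold numbered 1 (oligos), 11 (formaldehyde), 15 (both) and 0 (custom oligos), and 0 of 1 member was left past it with formaldehyde.

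Leaving out each library in turn gave between 56 and 150 called genes for NEBNext in HEK293T, 1 for Ribo-Zero Gold, 0 to 1 for RiboCop, 0 to 279 for NEBNext in K562 (0 without the NEBNext 20 to 34 nt library), 1 to 3 for FastSelect, 2 to 7 for riboPools, 13 to 21 for cold elution and 1252 to 1406 for Ribo-Zero Plus. Between cell lines it gave 2117 to 2835 genes and 2 to 4 members (K562 against HEK293T), and 219 to 263 genes and 3 to 8 members (HEK293FT against HEK293T, where without a HEK293T library both groups held 1 and the spread came from K562 alone). The NEBNext effect gave 0 to 31 genes. For NEBNext in K562 the size term was dropped here, an alternative chosen after seeing the data, as was the sum of the RiboCop pair.

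The replicate numbers were not taken to pair the libraries, since not every correlation passed 0.1: same-numbered libraries deviated together with correlations of 0.064 to 0.14 in HEK293T and -0.037 to 0.034 in the K562 kit table. With the replicate block, NEBNext in HEK293T called 2 members (SEC61B and CALR, adjusted p = 0.0379) and 153 genes. Other kit comparisons kept their number of called members. No paired analysis was possible between the cell lines because their libraries come from separate experiments and HEK293FT has 1 library. NEBNext in K562 was already fitted with fragment size as a term, which pairs its libraries by size.

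Depth limits SEC61B (16 and 18 counts undepleted in HEK293T, 2 in a K562 library) and SEC61A1 (7 counts with formaldehyde) most. A gene at 3 counts or fewer was treated as at the floor.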
